A study of Homo sapiens and Mus musculus with 56 samples.

Results

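The response to low oxygen and the glycolytic pathway were followed through 40 genes, given as a list of names and chosen with earlier results of these data known. Of these, 37 of the 18417 genes measured on human arrays and 35 of the 19938 genes measured on mouse arrays were members, the mouse genes being matched by the same symbol in mouse case. The members were split by role into 4 oxygen sensing genes, 15 glycolytic enzymes, 6 genes of glucose and lactate transport and of the control of glycolysis, and 15 other targets of the hypoxia-inducible factors (HIF). On human arrays PGAM1 was named only by probe sets that name several genes, and CA9 and SLC16A3 were not analysed here. On mouse arrays Gapdh was named only by such shared probe sets, and Gpi, Eno1, Ca9 and Ca12 were not analysed here under those symbols.

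Affymetrix whole-transcript arrays measured 5 lines grown from human glioblastoma (U87M2, U118, U251M2, SF295 and DBM2), on 28 human arrays labelled as cultured cells and 28 mouse arrays labelled as mice bearing subcutaneous tumours of the same lines. Treatment lasted 7 days with vehicle or with V-4084, which the labels describe as a small molecule that selectively inhibits the kinase activity of the receptor MET. Cells received dimethyl sulfoxide (DMSO) as vehicle, or V-4084 from a 0.01 M stock at a final dose that the labels do not state. Tumours were started from 500000 cells in the flank of nude mice, which lack mature T cells, and these mice received 30 mg/kg V-4084 or its vehicle, which combined MC 400 (0.5%) and Tween 80 (0.05%). Each platform had 10 groups of 3 arrays, apart from groups of 2 for both SF295 treatments among human arrays and for vehicle SF295 and treated U251M2 among mouse arrays. For 3 human arrays the title names DBM2 and V-4084 but the source field names SF295, and the title was followed.

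Cells answer low oxygen mainly through HIF. With oxygen present, prolyl hydroxylases such as EGLN1 and EGLN3 mark the HIF alpha subunits, HIF1A and EPAS1, for degradation through the VHL protein. When oxygen falls, the alpha subunits persist, pair with ARNT and switch on genes for glucose uptake, glycolysis, pH control, vessel growth and mitochondrial turnover. Growth factor receptors that act through PI3K and mTOR can also raise HIF activity and glycolysis without low oxygen, and glioblastoma is known for hypoxic, glycolytic areas around necrosis.

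HIF binds DNA at the core letters ACGTG or GCGTG, so the start regions of 6 members are shown, chosen after their values and matches were seen: 5 members that fell in U87M2 and have many matches, each by its window with the most, and the member that rose there. They are RefSeq promoter windows of GRCh38.p14, 300 bases long, from 250 bases before to 50 bases after the start, written 5′ to 3′ along the gene, with ACGTG and GCGTG on either strand in capitals (an overlapping CACGTG carries ACGTG on both strands). LDHA lies at chr11:18394313-18394612 (+), HK2 at chr2:74834920-74835219 (+), BNIP3 at chr10:131981874-131982173 (-), ALDOC at chr17:28576846-28577145 (-), PGK1 at chrX:78103998-78104297 (+) and P4HA2 at chr5:132227042-132227341 (-). P4HA2 is the member that rose.
LDHA: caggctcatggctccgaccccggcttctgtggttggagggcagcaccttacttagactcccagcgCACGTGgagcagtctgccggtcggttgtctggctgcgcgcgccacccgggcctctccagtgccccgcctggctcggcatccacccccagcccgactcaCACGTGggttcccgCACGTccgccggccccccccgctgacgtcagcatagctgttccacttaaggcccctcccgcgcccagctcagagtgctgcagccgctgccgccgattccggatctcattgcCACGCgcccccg
HK2: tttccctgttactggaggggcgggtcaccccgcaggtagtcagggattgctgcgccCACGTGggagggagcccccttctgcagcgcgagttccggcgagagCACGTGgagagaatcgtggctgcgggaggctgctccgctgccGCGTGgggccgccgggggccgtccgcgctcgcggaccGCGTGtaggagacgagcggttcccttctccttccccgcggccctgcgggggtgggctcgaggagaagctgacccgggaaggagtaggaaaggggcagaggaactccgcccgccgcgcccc
BNIP3: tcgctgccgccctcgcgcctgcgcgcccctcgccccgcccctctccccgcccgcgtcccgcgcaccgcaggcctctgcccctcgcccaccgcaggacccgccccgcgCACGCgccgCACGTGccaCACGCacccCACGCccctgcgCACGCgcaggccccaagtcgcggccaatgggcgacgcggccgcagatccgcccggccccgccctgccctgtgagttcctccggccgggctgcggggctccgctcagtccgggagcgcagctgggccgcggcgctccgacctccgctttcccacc
ALDOC: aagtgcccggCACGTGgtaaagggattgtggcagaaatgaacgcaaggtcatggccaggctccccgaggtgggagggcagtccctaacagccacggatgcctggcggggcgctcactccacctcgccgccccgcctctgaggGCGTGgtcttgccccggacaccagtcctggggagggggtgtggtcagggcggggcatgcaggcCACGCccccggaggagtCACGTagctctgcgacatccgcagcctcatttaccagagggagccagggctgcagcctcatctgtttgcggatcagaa
PGK1: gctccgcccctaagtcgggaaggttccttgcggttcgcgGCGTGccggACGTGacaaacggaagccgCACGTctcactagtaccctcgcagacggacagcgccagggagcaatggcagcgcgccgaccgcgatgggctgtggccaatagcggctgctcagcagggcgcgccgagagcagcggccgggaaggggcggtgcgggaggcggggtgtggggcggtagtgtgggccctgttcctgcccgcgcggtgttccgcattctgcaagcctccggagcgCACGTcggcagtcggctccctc
P4HA2: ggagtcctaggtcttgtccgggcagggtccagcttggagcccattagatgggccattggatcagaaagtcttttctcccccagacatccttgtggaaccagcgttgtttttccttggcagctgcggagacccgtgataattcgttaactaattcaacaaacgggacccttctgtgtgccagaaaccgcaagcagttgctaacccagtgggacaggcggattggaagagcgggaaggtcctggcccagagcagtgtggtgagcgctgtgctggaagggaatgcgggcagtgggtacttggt

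In these windows LDHA held 5 ACGTG and 1 GCGTG, HK2 4 and 2, BNIP3 2 and 4, ALDOC 3 and 2, PGK1 3 and 1, and P4HA2 neither. Members that were not called there can hold as many, as LOX with 4 ACGTG and ANKRD37 with 3, in windows not shown. The table held 36 of the 40 members, with 62 windows; STC1, NDRG1, BNIP3L and SLC2A3 had no entry. Of these 36 genes, 33 (91.7%) held either motif in at least 1 window, beside 52.4% of the 27305 genes of the table. Counted by window, 74.2% of the member windows and 48.4% of all 35116 windows held either motif. Among members measured on human arrays, either motif was present in 21 of 21 that were lower in U87M2 and in 10 of the 12 others. EGLN3, P4HA2 and PGAM1 had none. A match gives only the letters present in that window.

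Levels are log2 probe-set intensities, so a difference of 1 is a doubling, and differences are given as V-4084 minus vehicle with the standard error (SE) from limma. A gene was called higher or lower at a Benjamini-Hochberg adjusted p under 0.05 over all genes of a comparison, and "rose" and "fell" are used only of called genes. Nothing in the labels says whether repeats came from separate cultures or animals, and p-values therefore measure the spread between arrays. Over genes, medians were 6.99 to 7.17 for human arrays and 6.38 to 6.57 for mouse arrays. As arrays of narrow range, 3 human V-4084 arrays were listed (DBM2 replicate 2, U251M2 replicate 1 and SF295 replicate 2). Their standard deviation (SD) over genes was 1.33, 1.42 and 1.54 in that order, against 1.56 to 1.72 on the other human arrays. The SF295 array was thus close to the others in SD, and it had the lowest median, 6.99. The 3 were taken as a list and not by a cut-off. Of 10 glioma and glial marker genes, 4 to 8 lay above the median gene of a human group, fewest in U118 and most in U251M2. Within groups, the summed level of 13 skeletal muscle genes on a human array followed that of the mouse array with the same line, treatment and number at r = 0.947 over 27 pairs, and 10 fibroblast genes did so at r = 0.656, although the labels give the human arrays as cultured cells. The platforms were therefore not treated as independent, and the binding of human RNA to mouse probe sets, or of mouse RNA to human ones, was not tested.

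Most hypoxia and glycolysis genes were lower with V-4084 in U87M2, and no member was called in any other line. On the human arrays of U87M2, 24 of 37 members fell and 1 rose, beside 9.62% of all genes lower and 5.37% higher. The median difference was -0.66 over the members and 0.02 over all 18417 genes. The falls covered all 5 measured genes of transport and control (median -1.10), 11 of 14 glycolytic enzymes (median -0.66), 2 of 4 oxygen sensing genes and 6 of 14 other HIF targets (median -0.32). The largest was STC1, at 5.46-fold. Without the 3 narrow-range arrays 28 members were called, beside 26.1% of all genes, and leaving out single arrays gave 20 to 26.

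**Figure D1:**
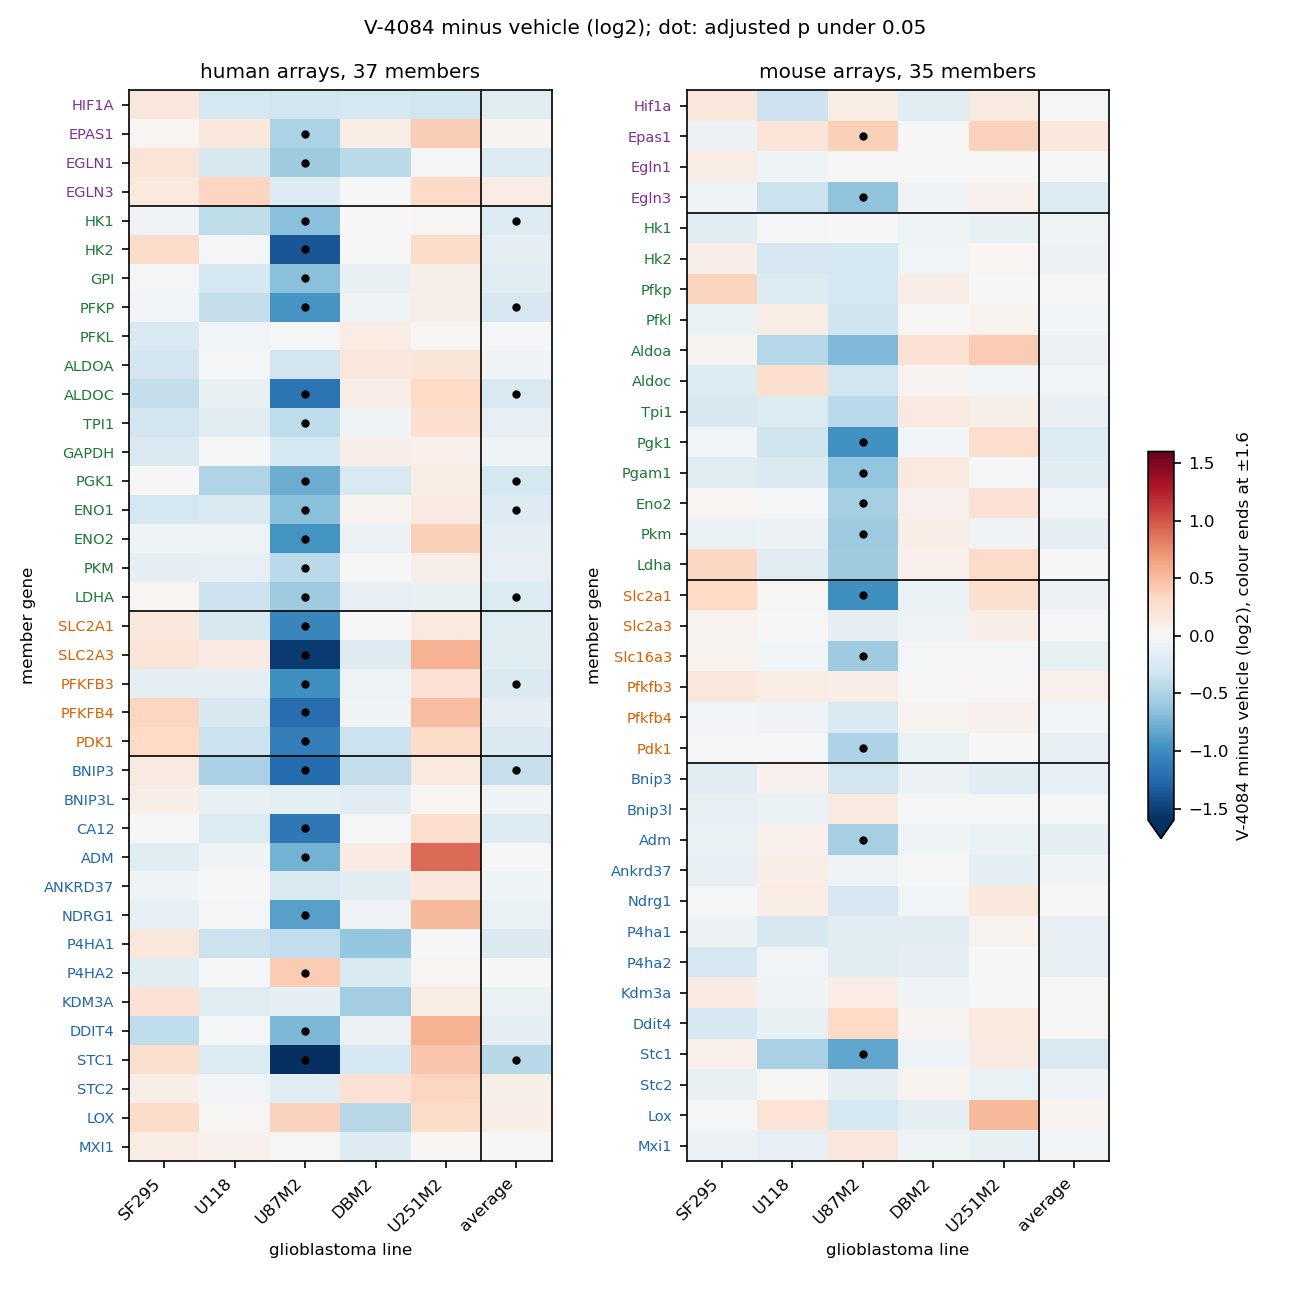
Difference with V-4084 (log2, V-4084 minus vehicle, colour scale from -1.6 to 1.6) of each member in the 5 lines and averaged over them, for 37 members on human arrays (left) and 35 on mouse arrays (right), with gene names coloured and ruled off by role and a dot where the adjusted p was under 0.05. The dots lie in the U87M2 column on both platforms and, for 9 members, in the human average.

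All measured genes of glucose entry and of its control fell. The glucose transporter SLC2A3 measured 8.87, 9.07 and 9.54 on the U87M2 vehicle arrays and 7.46, 7.50 and 7.92 with V-4084, a fall of 2.89-fold (difference -1.53, SE 0.25, adjusted p 8.22e-05). SLC2A1, the transporter usual at the blood-brain barrier and in tumours, measured 9.56, 10.15 and 10.06 against 8.78, 9.01 and 8.86 (difference -1.04, SE 0.19, adjusted p 0.000222). For both transporters every V-4084 array lay below every vehicle array. PFKFB3 and PFKFB4 make fructose 2,6-bisphosphate, the main activator of phosphofructokinase. PFKFB4 measured 7.97, 8.001 and 7.98 against 6.71, 6.85 and 6.72 (difference -1.22, SE 0.17, adjusted p 5.9e-06). PFKFB3 measured 8.99, 8.95 and 8.95 against 7.99, 8.01 and 7.95 (difference -0.98, SE 0.15, adjusted p 2.77e-05). For both genes the arrays of a group lay much closer to each other than to the other group. PDK1, a kinase that inhibits pyruvate dehydrogenase, fell from 8.14, 8.72 and 8.69 to 7.49, 7.28 and 7.48 (difference -1.10, SE 0.22, adjusted p 0.000882).

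Glycolytic enzymes fell at most steps of the pathway, and HK2 and ALDOC had the largest differences. HK2, the inducible hexokinase, measured 8.33, 8.56 and 8.69 with vehicle and 7.02, 7.22 and 7.23 with V-4084 (2.59-fold, difference -1.37, SE 0.18, adjusted p 3.95e-06). HK1, the constitutive form, measured 8.30, 8.001 and 8.43 against 7.60, 7.45 and 7.70 (difference -0.66, SE 0.12, adjusted p 0.000292). The 2 hexokinases were thus both lower, with no overlap of arrays. ALDOC, the brain aldolase, fell from 8.71, 8.63 and 8.88 to 7.57, 7.59 and 7.57 (difference -1.16, SE 0.15, adjusted p 4.54e-06), while the widespread ALDOA had a difference of -0.31 (SE 0.16, adjusted p 0.221). PFKP, the platelet type phosphofructokinase, fell from 10.00, 10.04 and 10.11 to 9.19, 9.12 and 9.02 (difference -0.94, SE 0.15, adjusted p 4.77e-05), while the liver type PFKL had a difference of -0.02 (SE 0.16). Whether the members of these isoform pairs differed from each other was not tested.

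At the later steps, ENO2, the neuronal enolase, fell from 8.98, 9.003 and 9.02 to 8.05, 8.01 and 8.06 (difference -0.96, SE 0.18, adjusted p 0.000441). The widespread enolase ENO1 fell from 12.39, 12.34 and 12.38 to 11.73, 11.66 and 11.70 (difference -0.67, SE 0.11, adjusted p 0.000112). PGK1, the first ATP-yielding enzyme of the pathway, fell from 10.83, 11.14 and 11.06 to 10.19, 10.19 and 10.26 (difference -0.79, SE 0.17, adjusted p 0.00134). LDHA, which turns pyruvate into lactate, fell from 12.55, 12.81 and 12.79 to 12.19, 12.10 and 12.14 (difference -0.57, SE 0.13, adjusted p 0.00206). All 4 had V-4084 arrays below their vehicle arrays. The isomerase GPI (-0.66), the pyruvate kinase PKM (-0.44) and the triosephosphate isomerase TPI1 (-0.41, adjusted p 0.0411) also fell. The TPI1 call was lost in 7 of 28 fits that each left out 1 array, namely any U87M2 array or U118 V-4084 replicate 1, with differences of -0.43 to -0.36 and adjusted p up to 0.138, and also with the replicate number as a block or the mean of the gene's probe sets (up to 0.0623). GAPDH measured 13.17, 13.07 and 13.16 against 12.88, 12.86 and 12.80 and was not called (difference -0.28, SE 0.10, adjusted p 0.0508).

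**Figure D2:**
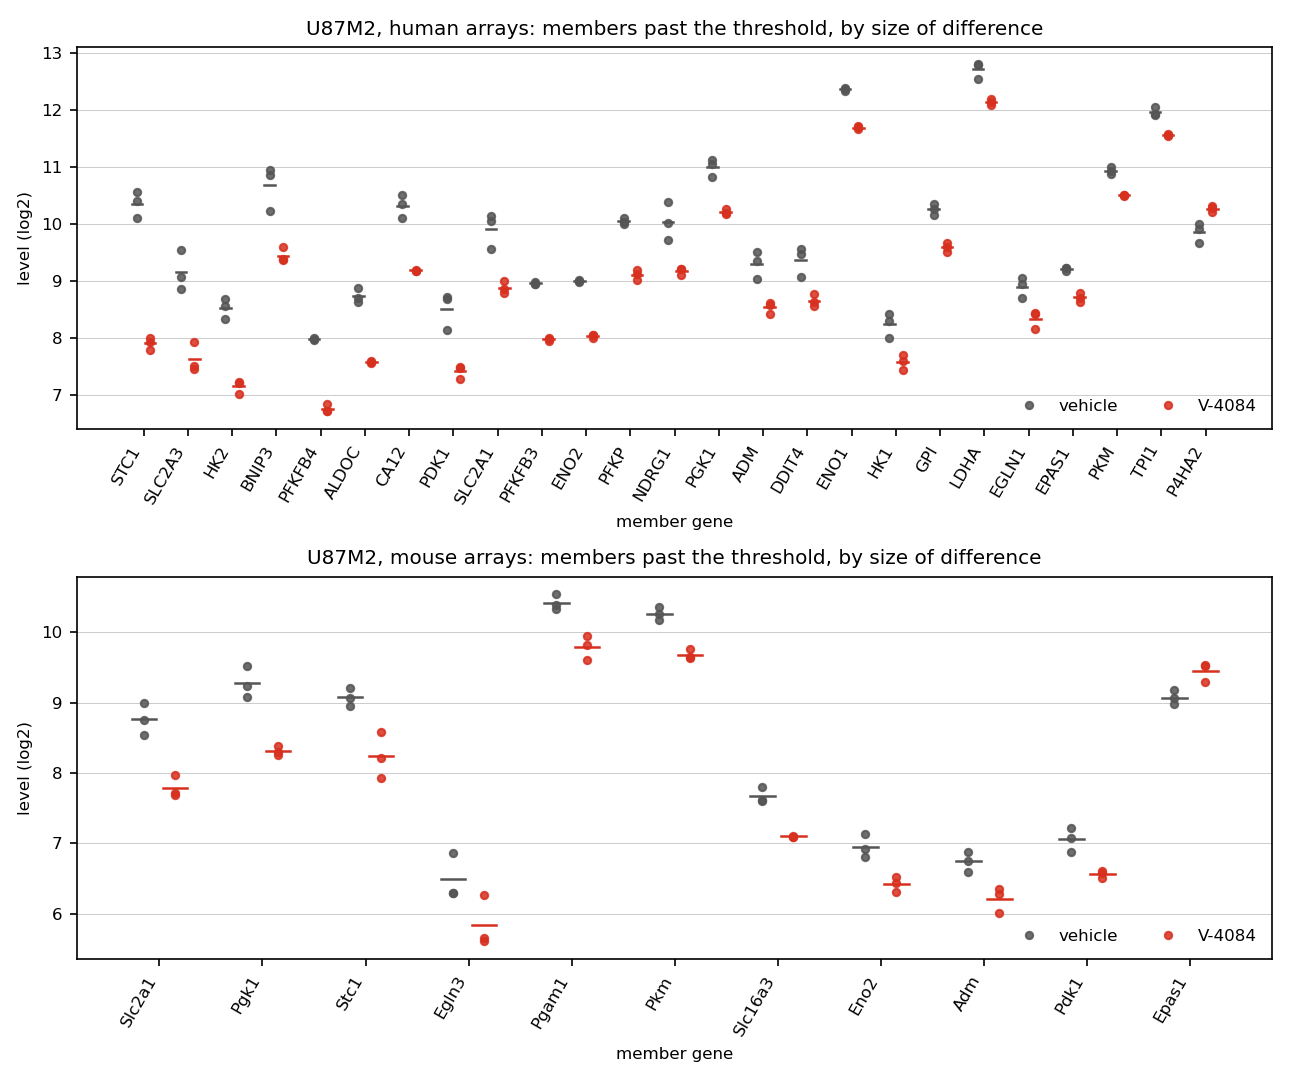
Levels (log2) on each U87M2 array, grey for vehicle and red for V-4084 with a line at each mean, for the 25 members called on human arrays (top) and the 11 called on mouse arrays (bottom), ordered by the size of a fall. STC1 is at the left of the human panel, with vehicle arrays at 10.11 to 10.56 and V-4084 arrays at 7.79 to 8.01, and P4HA2 at the right is the 1 human member with higher V-4084 arrays.

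Of the oxygen sensing genes, EPAS1 and EGLN1 fell and HIF1A and EGLN3 were not called. HIF1A measured 10.92, 11.03 and 11.13 in U87M2 with vehicle and 10.68, 10.70 and 10.82 with V-4084, and it was not called (difference -0.30, SE 0.17, adjusted p 0.273). EPAS1, which encodes the HIF-2 alpha subunit, fell from 9.24, 9.24 and 9.18 to 8.80, 8.70 and 8.64 (difference -0.51, SE 0.14, adjusted p 0.0164). EGLN1 fell from 8.70, 8.95 and 9.06 to 8.15, 8.43 and 8.44 (difference -0.56, SE 0.16, adjusted p 0.0132). Neither call held under every choice of arrays. The EPAS1 call was lost without V-4084 replicate 2 or 3 (adjusted p up to 0.0626) and after quantile normalization (0.0788), and the EGLN1 call without vehicle replicate 3 or V-4084 replicate 1 (up to 0.0923). EGLN3, the hydroxylase most strongly induced by HIF in many cells, measured 6.32, 6.83 and 6.24 against 6.12, 6.32 and 6.34, and the arrays overlapped. HIF is controlled largely at the protein, which arrays do not measure.

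The other HIF targets split. STC1, a secreted glycoprotein hormone, measured 10.56, 10.11 and 10.40 with vehicle and 8.01, 7.93 and 7.79 with V-4084 (difference -2.45, SE 0.18, adjusted p 2.44e-10). BNIP3, a mitochondrial protein that marks mitochondria for removal, measured 10.24, 10.86 and 10.95 against 9.38, 9.37 and 9.60 (difference -1.23, SE 0.22, adjusted p 0.00018). CA12, a cell surface carbonic anhydrase that acts in pH control, measured 10.12, 10.52 and 10.35 against 9.18, 9.19 and 9.20 (difference -1.14, SE 0.17, adjusted p 2.69e-05). In all 3 the groups were well apart. NDRG1, a stress-induced gene, fell by 0.86, the vasodilator peptide gene ADM by 0.76 and DDIT4, an inhibitor of mTOR complex 1, by 0.71. Those last calls were less stable. NDRG1 was lost without vehicle replicate 2 (difference -0.69, adjusted p 0.0768), and ADM and DDIT4 were each lost in 5 of 28 fits, on leaving out any U87M2 array but vehicle replicate 1 (adjusted p up to 0.173 and 0.165), and after quantile normalization (0.0928 and 0.0866).

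BNIP3L, the close relative of BNIP3, did not follow it, with a difference of -0.16 (SE 0.16) and overlapping arrays. The collagen prolyl hydroxylase P4HA2 rose from 9.68, 10.00 and 9.93 to 10.21, 10.28 and 10.32 (difference 0.41, SE 0.14, adjusted p 0.0434), a call lost in 14 of 28 fits without 1 array, 5 of those arrays being from U87M2 itself (differences of 0.31 to 0.47, adjusted p up to 0.206), and with the replicate number as a block (0.0705). P4HA1, which encodes the alternative catalytic subunit, had a difference of -0.39 (SE 0.25) and LOX, which crosslinks collagen, one of 0.37 (SE 0.26), neither called. ANKRD37 (-0.25), KDM3A (-0.15), STC2 (-0.16) and MXI1 (0.02) were not called either.

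Genes used as markers of other cell types were read beside these values. On human arrays of U87M2, 10 of 10 fibroblast genes were higher with V-4084, with a median difference of 1.09 and a list mean of 9.12 to 9.52 with vehicle and 10.38 to 10.40 with V-4084. All 10 lay above the median gene over all human arrays, and their list mean was 11.08 to 11.19 on U118 vehicle arrays. Whether tumour cells or other cells expressed them cannot be told from these arrays. On U87M2 mouse arrays 0 of 10 fibroblast genes were called, with a median difference of 0.34. The part of the fibroblast genes' source cells in the members' differences was not tested. No skeletal muscle gene of 13 was called there and the list mean was 5.97 to 6.20 against 5.99 to 6.14. In a bulk sample, fewer cells of a type and less RNA per cell cannot be told apart.

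Other genes of the pathway, outside the 40, were mixed by role. Of 34 other HIF targets on U87M2 human arrays, 15 fell and 2 rose, with a median difference of -0.42. VEGFA, the main angiogenic factor among them, fell from 10.55, 10.99 and 10.92 to 9.40, 9.33 and 9.35 (difference -1.46, SE 0.21, adjusted p 1.27e-05). ERO1A, an oxidase of the endoplasmic reticulum, fell by 1.51, ANGPTL4 by 1.42 and AK4, an adenylate kinase, by 1.32, while TMEM45A rose by 0.82 and RORA by 0.71. Of 21 other glycolysis genes, TIGAR fell (-0.91), PDK4 rose (1.06, SE 0.15, adjusted p 1.36e-05), and the median was 0.03. PDK4 encodes a kinase of the same family as PDK1, which fell. Of 8 other oxygen sensing genes, HIF1AN fell by 0.51 and CITED2 (0.37) and ARNT2 (0.39) rose.

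On mouse arrays of U87M2 tumours, 10 of 35 members fell and 1 rose, beside 1.22% of all genes lower and 2.49% higher. The median was -0.29 over the members and 0.00 over all genes. After quantile normalization the calls over all genes moved from 244 lower and 497 higher to 517 lower and 514 higher, and 13 members were lower and 1 higher. Slc2a1 measured 8.54, 8.999 and 8.76 with vehicle and 7.69, 7.97 and 7.71 with V-4084 (difference -0.98, SE 0.16, adjusted p 0.000595). Pgk1 measured 9.07, 9.53 and 9.23 against 8.25, 8.39 and 8.29 (difference -0.97, SE 0.13, adjusted p 7e-05). The treated arrays of both genes lay under every vehicle array, and neither call was lost on leaving out any single array. Pkm fell from 10.26, 10.18 and 10.35 to 9.64, 9.64 and 9.76 (difference -0.58, adjusted p 0.00125), and Pdk1 from 6.87, 7.22 and 7.08 to 6.51, 6.58 and 6.60 (difference -0.49, adjusted p 0.00601), again with no single array deciding it.

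The other mouse calls each rested on single arrays. Stc1 fell from 9.06, 8.96 and 9.21 to 8.21, 8.58 and 7.93 (difference -0.83, SE 0.22, adjusted p 0.0309), a call lost without vehicle replicate 1 or 3 or V-4084 replicate 1 or 3 (adjusted p up to 0.126). Egln3 measured 6.30, 6.87 and 6.30 against 5.66, 5.61 and 6.26 (difference -0.65, SE 0.18, adjusted p 0.0446), a call lost in 10 of 28 such fits (up to 0.229) and with the replicate number as a block or in a fit on the line alone (up to 0.107). Pgam1 (-0.63), Adm (-0.53), Eno2 (-0.53) and the lactate exporter gene Slc16a3 (-0.57) fell too. They were lost in 2, 3, 5 and 1 of those fits, always on leaving out a U87M2 array, with adjusted p up to 0.0727, 0.134, 0.157 and 0.0531, and Eno2 was also lost with the replicate number as a block (0.0542). Epas1 rose from 9.18, 8.97 and 9.06 to 9.53, 9.53 and 9.29 (difference 0.38, SE 0.10, adjusted p 0.0306), a call lost without vehicle replicate 2 or 3 or V-4084 replicate 1 or 2 (up to 0.148) and with the replicate number as a block or in a fit on the line alone (up to 0.0942). Ldha, with a difference of -0.57 (SE 0.18), was not called (adjusted p 0.0772). Hif1a (0.12), Hk2 (-0.29) and Ddit4 (0.32, adjusted p 0.0577) were not called. Mouse Hk1 is uncertain, because the probe set used for it rests on 1 accession and followed the gene's other probe set at r = -0.02 over the 28 arrays.

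In these U87M2 mouse arrays, 5 of 11 macrophage genes were higher with V-4084, with a list mean of 9.16 to 9.24 with vehicle and 9.33 to 9.79 with V-4084. The skeletal muscle list, with 0 of 14 genes called by limma, ran from 6.68 to 7.65 with vehicle and from 6.48 to 6.66 with V-4084. All 14 of its differences were negative, beside 49.8% over all genes, with a median of -0.62. The part of these cells in the members' differences was not tested. The carbonic anhydrase genes under their mouse symbols, Car9 (-0.11) and Car12 (-0.26), were not called. Of 33 other HIF targets, Nrn1 (-1.05), Bhlhe40 (-0.75) and Vegfa (-0.67, SE 0.11, adjusted p 0.000935) fell, and Cxcr4 (0.55) and Ccng2 (0.42) rose. None of 21 other glycolysis genes and none of 8 other oxygen sensing genes was called by limma.

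Of 33 members measured on both platforms, 21 fell on human arrays of U87M2 and 8 on mouse arrays. The 7 that fell on both, PGK1, ENO2, PKM, SLC2A1, PDK1, ADM and STC1, are 33.3% of the human and 87.5% of the mouse falls. The difference was negative on both platforms for 24 members. These counts of calls and signs were not made over all genes and have no share beside them. V-4084 arrays lay wholly on the same side of the vehicle arrays on both platforms for 14 members (42.4%), beside 8.90% of 14332 symbols. HK2, SLC2A3, BNIP3, PFKFB4 and ALDOC, with human differences of -1.37, -1.53, -1.23, -1.22 and -1.16, had mouse differences of -0.29, -0.14, -0.29, -0.24 and -0.30. EPAS1 was called on both, lower on human and higher on mouse arrays. Whether a gene's difference differed between platforms was not tested.

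**Figure D3:**
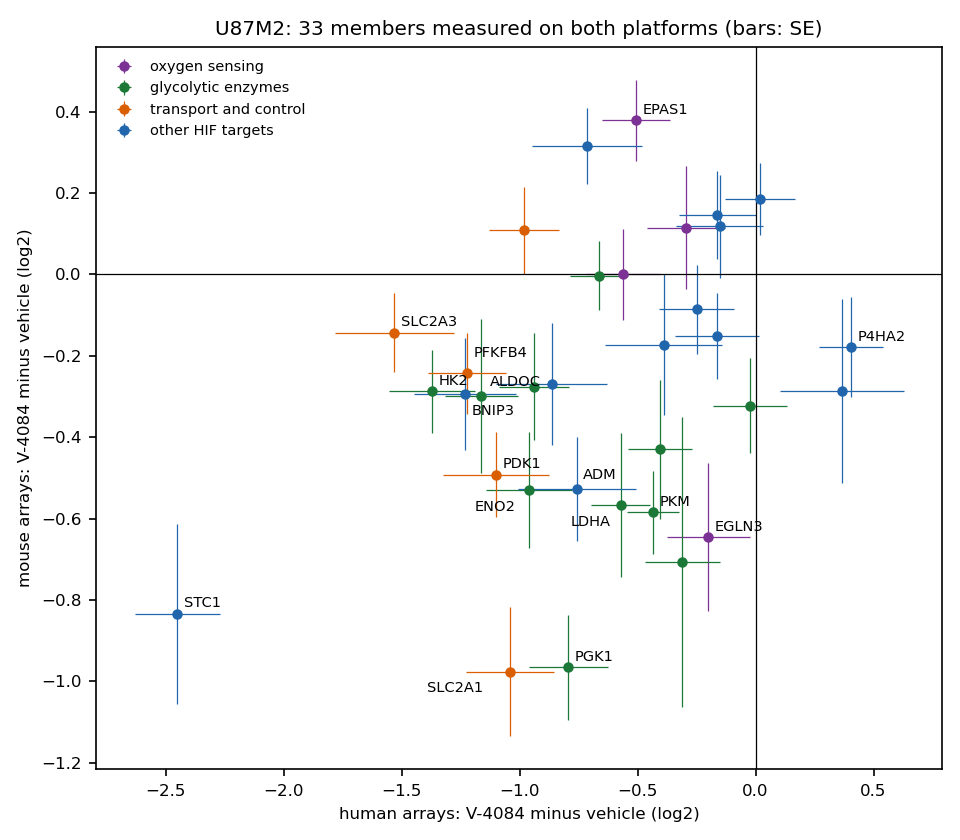
Difference with V-4084 in U87M2 (log2) on human arrays (x axis) against mouse arrays (y axis) for 33 members, with SE bars and colours by role. SLC2A1 and PGK1 lie lowest on the mouse axis, at -0.98 and -0.97, STC1 is farthest left at -2.45 on human arrays, and EPAS1 is at the top with 0.38 on mouse and -0.51 on human arrays.

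The other 4 lines gave no call among the members on human arrays. In SF295, where limma called 0% of all genes in either direction, 0 members passed an unadjusted p under 0.05, beside 8.58% of all genes, and the smallest p belonged to ENO1 (-0.28, SE 0.14) and ALDOC (-0.38, SE 0.19). Without SF295 V-4084 replicate 1, which leaves the narrow-range array alone, 4 members were called lower, ALDOA (-0.78), PFKL (-0.67), ENO1 (-0.51) and GAPDH (-0.41), a share of 10.8% beside 10.4% of all genes. That fit takes the spread of the lone array to be that of the other groups. In U118, 32 of 37 differences were negative, beside 45.5% over all genes. There, limma called 0.109% of all genes higher and 0.646% lower, 6 members (16.2%) had an unadjusted p under 0.05, all of them lower, beside 10.1% of all genes, and the smallest adjusted p was 0.154. HK1 in U118 measured 7.97, 8.27 and 8.23 against 7.72, 7.82 and 7.72 (difference -0.40, SE 0.12). PGK1 measured 10.26, 10.82 and 10.38 against 9.96, 10.13 and 9.93 (difference -0.48, SE 0.17). Neither gene's arrays overlapped, and both were called once the 3 narrow-range arrays of other lines were left out of the shared fit (adjusted p 0.027 and 0.0235), beside 3.30% of all genes.

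DBM2 and U251M2 had opposite signs in most members in the deposited values, with member medians of -0.08 and 0.17. After quantile normalization both medians were positive, 0.05 in DBM2 and 0.19 in U251M2. In DBM2, 25 of 37 differences were negative, beside 42.5% over all genes, and limma called 0% of all genes in either direction. There 3 members (8.11%) had an unadjusted p under 0.05, all lower, beside 26.7% of all genes. KDM3A (-0.56, SE 0.19) and EGLN1 (-0.43, SE 0.16) had the smallest p, with overlapping arrays. The narrow-range replicate 2 was the lowest V-4084 array of both, at 6.96 against 7.56 and 7.78 for KDM3A and 8.25 against 8.81 and 8.98 for EGLN1. Without DBM2 V-4084 replicate 3 they and P4HA1 were called, at -0.74, -0.58 and -0.83, again 8.11% of the members beside 24.6% of all genes. In U251M2, 34 of 37 differences were positive, with 8.11% of members and 44.3% of all genes negative, and limma called 0% of all genes in either direction. There 9 members (24.3%) had an unadjusted p under 0.05, all higher, beside 6.03% of all genes. ADM measured 8.51, 8.48 and 8.72 with vehicle and 10.34, 9.25 and 8.81 with V-4084 (difference 0.90, SE 0.25, adjusted p 0.721), the 10.34 coming from the narrow-range replicate 1. PFKFB4 was next by p (0.49, SE 0.17).

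On mouse arrays the same 4 lines gave no member call either. In SF295, limma called 0.01% of all genes higher and 0% lower, and 2 members (5.71%) had an unadjusted p under 0.05, Ddit4 (-0.28, SE 0.10) and Pfkp (0.35, SE 0.15), beside 6.73% of all genes. In U118, it called 0.01% higher and 0% lower, and 4 members (11.4%), led by Hk2 (-0.27, SE 0.10) and Pgk1 (-0.32, SE 0.13), had such a p, all lower, beside 6.80% of all genes. Hk2 and Pgk1 arrays did not overlap in U118. In DBM2, 0% of genes were called in either direction and 0 members had such a p, beside 2.30% of all genes, the smallest belonging to Hif1a (-0.18, SE 0.15) and P4ha2 (-0.14, SE 0.12). In U251M2, 0.0251% of genes were called higher and 0.015% lower, and 1 member, Epas1 (0.36, SE 0.11, adjusted p 0.256), had such a p, beside 13.4% of all genes, and Lox came next (0.51, SE 0.25). Epas1 was thus above vehicle by a like amount in U251M2 and U87M2 tumours, called in U87M2 alone, and the difference between lines was not called (adjusted p 0.288).

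**Figure D4:**
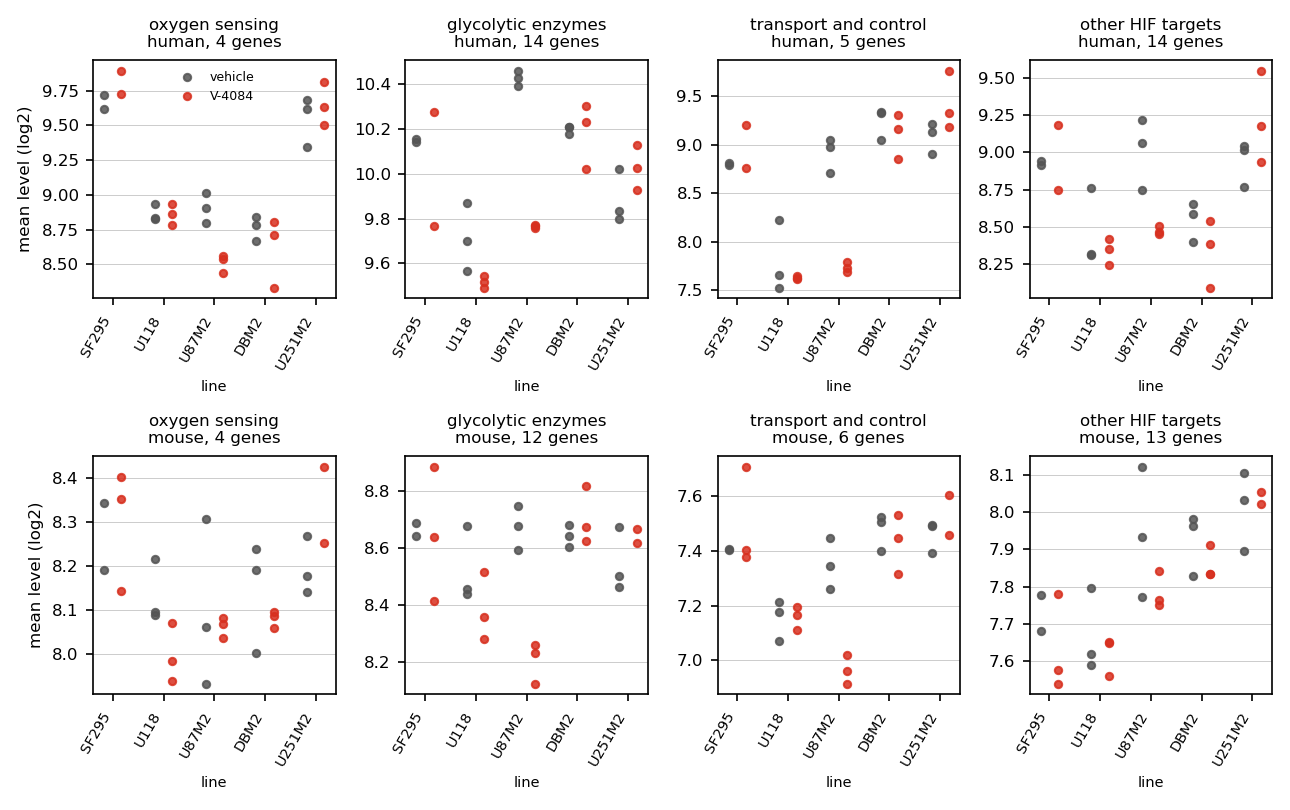
Mean level (log2) of the members of each role on every array, grey for vehicle and red for V-4084, in the 5 lines, on human arrays (top) and mouse arrays (bottom). Each panel has its own vertical range. In U87M2 the V-4084 arrays lie below the vehicle arrays for glycolytic enzymes and for transport and control on both platforms.

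Averaged over the 5 lines with equal weights, 9 of 37 members fell on human arrays and none rose, beside 8.23% of all genes lower and 3.38% higher. They were STC1 (-0.45, SE 0.08, adjusted p 0.00175), BNIP3 (-0.37), PGK1 (-0.28), PFKP (-0.27), ALDOC (-0.25), PFKFB3 (-0.23), LDHA (-0.22), HK1 (-0.22) and ENO1 (-0.20), each negative in 3 or 4 of the 5 lines. The average rested on U87M2. Without that line 0 members and 0 genes were called, and STC1 turned to 0.05 while BNIP3 was -0.15, PGK1 -0.16 and LDHA -0.14. Leaving out SF295 V-4084 replicate 1 raised the count to 15 (40.5%), beside 16.6% of all genes, and other single arrays gave 6 or more. LDHA had a negative difference in 4 of 5 lines and was called in U87M2 alone. Its U118 arrays measured 12.17, 12.47 and 12.24 against 11.96, 12.06 and 11.87. On mouse arrays limma called 0 of 35 members in the average, beside 0.0502% of all genes higher and 0.0201% lower, and 10 (28.6%) had an unadjusted p under 0.05, 9 of them lower, beside 9.64% of all genes. The smallest belonged to Epas1 (0.17, SE 0.05, adjusted p 0.185) and Pgk1 (-0.22, SE 0.06).

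The differences with V-4084 were themselves unequal between lines for 16 of 37 members on human arrays, by limma's F test, beside 5.53% of all genes. They included all 5 genes of transport and control, 6 of 14 glycolytic enzymes, 4 of 14 other HIF targets and 1 of 4 oxygen sensing genes. The smallest adjusted p belonged to STC1 (1.21e-07), PFKFB4 (0.000154), HK2 (0.000297), ALDOC (0.000369), SLC2A3 (0.00256), CA12 (0.00293), PFKFB3 (0.0042) and ENO1 (0.00964). STC1 shows the pattern: its differences were -2.45 in U87M2, -0.28 in DBM2, -0.22 in U118, 0.26 in SF295 and 0.44 in U251M2. HK2 had -1.37 in U87M2 and between -0.03 and 0.30 in the other lines. Without U87M2 no member and no gene passed this test, without its vehicle replicate 3 the count was 9, and without its V-4084 replicate 1 or 2 it was 10. LDHA (adjusted p 0.233) and HIF1A (0.618) did not pass. On mouse arrays Pgk1 (0.0111) and Slc2a1 (0.0247) passed, 2 of 35, beside 0.341% of all genes. The mouse count was 0 without U87M2, beside 0% of all genes, and 0 without its V-4084 replicate 1, beside 0.110%. It was 1, beside 0.115% to 0.326%, without any one of U87M2 vehicle replicate 2 or 3 or its V-4084 replicate 2 or 3.

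With vehicle alone, the lines differed widely in these genes. On human arrays 34 of 37 members differed between the 5 vehicle groups, beside 58.4% of all genes, and GAPDH, BNIP3L and P4HA1 did not pass. Most members lay above the platform median, and among genes above it 33 of 36 members differed, beside 78% of genes. LDHA had the widest range, 22.3-fold, because of a single line: U251M2 measured 8.38, 8.02 and 8.31 while the arrays of the other 4 lines lay between 12.17 and 12.81, neighbours in order overlapping (adjusted p 8.99e-21). V-4084 arrays of U251M2 were as low, at 8.02, 8.24 and 8.10. Its partner subunit LDHB, no member, had vehicle means of 10.50 to 10.88 in the 5 lines (adjusted p 0.45). On the mouse arrays of the same lines Ldha had means of 9.76 to 10.25, U251M2 lowest, and did not differ past the threshold (adjusted p 0.0894). TPI1 was also lowest in U251M2, with a mean of 10.82 against 11.35 to 11.98. GAPDH had means of 12.98 to 13.13.

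EGLN3 differed 13.2-fold, with 9.69 and 9.65 in SF295, 9.17, 8.92 and 9.35 in U251M2, 7.95, 7.84 and 7.83 in DBM2, 6.32, 6.83 and 6.24 in U87M2 and 5.89, 6.08 and 5.88 in U118 (adjusted p 5.36e-16). No neighbours in that order overlapped. STC1 ran from 7.03 in U118 to 10.36 in U87M2, the other means being 9.32, 9.56 and 9.70 in SF295, DBM2 and U251M2, with overlapping arrays in DBM2 and U251M2. CA12 was high in U87M2, U118 and SF295 (10.33, 10.06 and 10.00, with overlapping arrays) and lower in U251M2 (7.95) and DBM2 (7.34). EPAS1 ran from 7.49 in DBM2 to 9.79 in U118 and SLC2A1 from 8.78 in U118 to 11.16 in U251M2. In that order of SLC2A1, U118, U87M2, SF295, DBM2 and U251M2, the arrays of neighbours overlapped for DBM2 and U251M2 and for no other pair. ALDOC ran from 6.69 in U118 to 8.74 in U87M2 and PFKP from 8.51 in U118 to 10.11 in DBM2. HIF1A was within 1.72-fold, from 10.58 in DBM2 to 11.37 in U251M2 (adjusted p 0.000998).

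**Figure D5:**
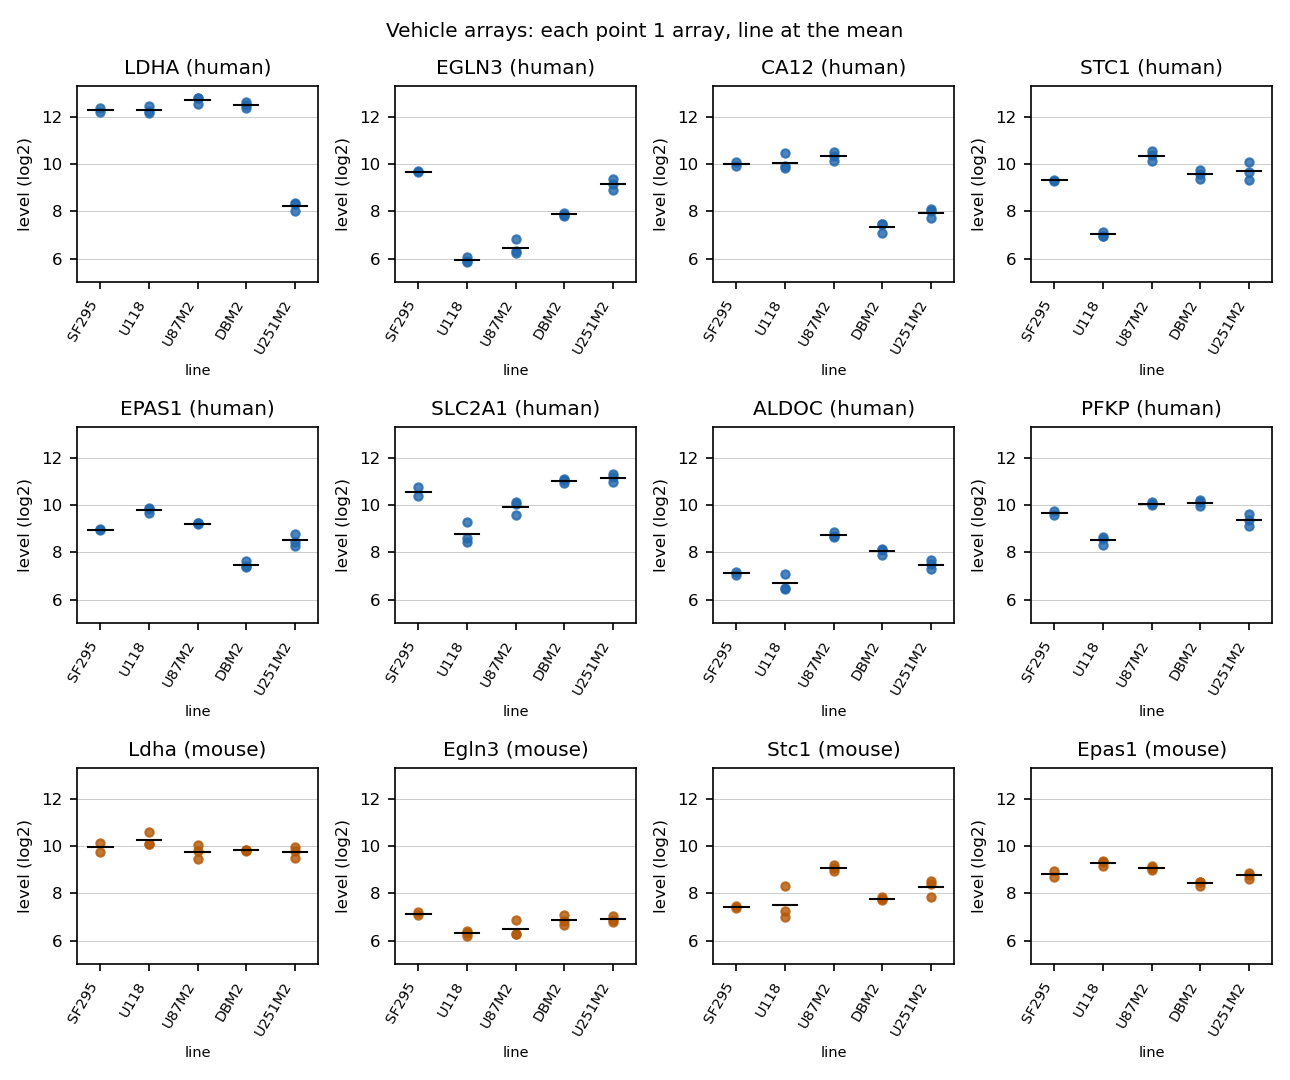
Levels (log2) on each vehicle array, with a line at each mean, in the 5 lines for the 8 members with the smallest p between lines on human arrays (blue) and for 4 genes on mouse arrays (orange). LDHA sits at 8.02 to 8.38 in U251M2 and above 12 in every other line on human arrays, while mouse Ldha lies between 9.47 and 10.59 in all lines.

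U118 had the lowest vehicle mean of the 5 lines for 21 of 37 human members, beside 19.4% of all genes, and for 17 of 35 mouse members, beside 23.1%. U87M2 had the highest for 14 human members and U251M2 for 13, beside 22.7% and 20.4% of all genes. On mouse arrays 24 of 35 members differed between the vehicle groups, beside 54.3% of all genes. Among genes above the platform median 25 of 33 members differed, beside 68.6% of genes. Epas1 ran from 8.44 in DBM2 to 9.28 in U118, the same end lines as EPAS1 on human arrays, with arrays of 8.50, 8.50 and 8.31 against 9.32, 9.38 and 9.14. Stc1 was highest in U87M2 on both platforms, with a mouse mean of 9.08 against 7.43 to 8.26, and Egln3 was lowest in U118 and highest in SF295 on both (6.31 and 7.15 on mouse arrays). Pkm ran from 9.55 in U118 to 10.26 in U87M2 and Pgam1 from 9.44 to 10.42 in the same lines. Lox was highest in DBM2 (9.60) and lowest in U118 (8.13), Hk2 ran from 6.98 in U118 to 7.70 in SF295, Pfkfb3 from 7.25 in DBM2 to 7.85 in U118 and Ddit4 from 7.40 in SF295 to 7.89 in U251M2. Hif1a varied least, from 9.32 to 9.46. Pfkfb3 and Pfkp were highest in U118, the line where PFKFB3 and PFKP were lowest on human arrays. Agreements and reversals of line order between platforms were not counted over all genes.

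Within groups, with the group means removed, the members also varied together from array to array. The median correlation over the 666 pairs of human members was 0.460, beside 0.006 over pairs of 1842 genes (every 10th gene by name), and 92.5% of the member pairs were positive. By role the medians were 0.641 for transport and control, 0.547 for other HIF targets, 0.498 for glycolytic enzymes and 0.309 for oxygen sensing genes. Without the 3 narrow-range arrays the median over all members was 0.350 over 24 arrays, the SF295 V-4084 array then alone in its group having no deviation (-0.006 for the 1842 genes), with 0.499 for transport and control, 0.609 for other HIF targets, 0.394 for glycolytic enzymes and 0.179 for oxygen sensing genes. The closest pairs were PDK1 with BNIP3 (0.935), ENO2 with PFKFB3 (0.904) and BNIP3 with P4HA1 (0.901). HIF1A had its lowest values with ALDOA (-0.622) and STC2 (-0.612). These points share an array each, and are a description over 28 arrays. On mouse arrays the median over 595 pairs was 0.196 (0.005 over 1994 genes taken in the same way).

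Some of that variation followed the other platform and the muscle genes. Over 27 pairs of same-numbered arrays, the median correlation of a member with itself on the other platform was 0.188, beside 0.068 over 14332 symbols. For the mean over a role it was 0.498 in other HIF targets, 0.379 in oxygen sensing, 0.039 in transport and control and -0.147 in glycolytic enzymes. Among single members it was highest for BNIP3L (0.709), P4HA1 (0.687), LOX (0.549) and BNIP3 (0.526) and lowest for ENO2 (-0.487). On mouse arrays Aldoa followed the skeletal muscle list at 0.919 and Ldha at 0.663, as did the muscle isoforms Eno3 (0.991), Pfkm (0.947) and Pgam2 (0.901), which are no members. That list's mean ran from 8.57 to 9.87 over U118 vehicle arrays and from 6.35 to 9.52 over U118 V-4084 arrays. Slc2a1 (-0.525) and Slc2a3 (-0.542) ran against the list, and the median over mouse members was -0.018. Mouse Pgk1, the member called most firmly on that platform, had 0.246. Among the members called in U87M2 on mouse arrays, the values ran from -0.525 for Slc2a1 to 0.368 for Pkm. On human arrays ALDOA had 0.557 and the median was -0.078.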

How the data were processed

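The members and all gene lists were chosen with earlier results of these data known. Total RNA (200 ng) was labelled per array. The files hold log2 intensities per probe set, which were deposited by the authors after RMA in Partek, per the submitters' processing notes, with no version stated there. They were used unchanged. Of 33297 human probe sets, 19460 name 1 gene, 1754 several and 12083 none; of 35556 mouse probe sets, 21789 name 1 gene, 1621 several and 12146 none. Only sets with 1 gene were kept, and the set of highest mean stood for a gene. For arrays, their number limits the precision.

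limma 3.58.1 in R 4.3.3 fitted the 10 group means of each platform (18 residual degrees of freedom, lmFit and eBayes), with two-sided contrasts for V-4084 in each line and their average, and F tests between lines, Benjamini-Hochberg adjusted over all genes and called under 0.05. The fit was tested on simulated data. Promoter motifs, correlations and figures were made in Python 3.11.15 with pandas 2.3.3 and matplotlib 3.10.9.

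Named by rule were HIF1A, EPAS1, CA9 and LDHA, the 6 called members with the largest differences per comparison and direction, the 2 with the smallest p where none was called, the 8 with the smallest p of each F test, and up to 4 other pathway genes per comparison with VEGFA. The remaining members are accounted for by count or value. Alternatives were trend in eBayes, the mean of a gene's probe sets, genes above the platform median, quantile normalization, the replicate number as a block, the line alone, and leaving out the U87M2 line, the DBM2 line, the 3 narrow-range arrays or each array. The labels do not say that replicate numbers pair arrays.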

Additional observations from a re-analysis of the deposited data

Results flagged for a closer look

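The V-4084 difference differed between the 5 lines on human arrays for 16 members by limma's F test, with these adjusted p-values. In transport and control they were 0.000154 for PFKFB4, 0.00256 for SLC2A3, 0.0042 for PFKFB3, 0.0164 for SLC2A1 and 0.0255 for PDK1. In the glycolytic enzymes they were 0.000297 for HK2, 0.000369 for ALDOC, 0.00964 for ENO1, 0.0111 for PFKP, 0.0155 for ENO2 and 0.0309 for HK1. In the other HIF targets they were 1.21e-07 for STC1, 0.00293 for CA12, 0.0238 for BNIP3 and 0.0387 for ADM, and in oxygen sensing 0.0486 for EPAS1. On mouse arrays they were 0.0111 for Pgk1 and 0.0247 for Slc2a1.

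In U87M2, 3 members had V-4084 arrays wholly on one side of the vehicle arrays on human arrays and wholly on the other side on mouse arrays. They are 9.09% of 33 members measured on both, beside 1.95% of 14332 symbols on both. On the same side on both platforms were 14 members (42.4%), beside 8.90% of these symbols. EPAS1 had a log2 difference of -0.51 on human and Epas1 one of 0.38 on mouse arrays. DDIT4 had -0.71 and Ddit4 0.32. P4HA2 had 0.41 and P4ha2 -0.18. The difference between platforms was not tested.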

How the results depend on the processing

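Human U87M2 had 20 to 28 called members under the alternatives run, and 20 to 26 on leaving out single arrays. With the replicate number as a block, human U87M2 had 23 called members beside 11.6% of all genes, and the human average 6 beside 6.14%. The human differences between lines had 12 beside 3.19%, mouse U87M2 9 beside 2.88% and the mouse differences between lines 1 beside 0.0953%. Same-numbered human arrays of a line correlated at -0.520 to 0.318, so the numbers were not taken to pair arrays, and the vehicle comparison has no fit with the block. The human average had 5 called members after quantile normalization, beside 7.54% of all genes. It had 0 without U87M2, beside 0% of all genes, and STC1 there turned to 0.0507. The differences between lines had 0 on human and 0 on mouse arrays without U87M2. Without DBM2, whose labels disagree, the human average had 9 beside 9.66% of all genes, and the differences between lines 18 beside 7.04%. Human U118 had 2 without the narrow-range arrays. Leaving out single arrays gave 0 to 4 in human SF295, 0 to 3 in human DBM2, 6 to 15 in the human average, 9 to 22 in the human differences between lines, 6 to 12 in mouse U87M2 and 0 to 2 in the mouse differences between lines. Shares of all genes called moved as well in fits without 1 array. Human DBM2 had 3 members beside 24.6% of all genes, and mouse U87M2 had 6 beside 1.87% to 3.37%. The human differences between lines had 9 or 10 beside 3.62% to 3.89%. The cause of these changes was not tested, beyond the smaller number of samples in each.

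Groups of 2 or 3 arrays limit the precision. The correlation of members without the 3 narrow-range arrays was chosen after seeing the data. Quantile normalization moved the median of all genes by under 0.1 in each comparison. A level on an array cannot be set against that of another gene as an amount of RNA. This limit also covers the counts of genes above a median gene or a platform median.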
